A study of Homo sapiens with 6 samples.

Results

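The genes described here are neighbours on the long arm of chromosome 1, in bands 1q22 to q23, from SLC50A1 to ETV3. The segment lies just beyond EFNA1, and 51 of its genes were chosen as members because differences between the groups had been seen there. A member counted as measured when at least 1 probe set was annotated to its symbol alone, older symbols included. That held for 48 of the 51 members, among 19775 genes measured in all. ASH1L, ARHGEF2 and BGLAP had no such probe set and were not analysed here. The choice of members used the same comparison of groups as the values below, so their differences are a description and are given without a test.

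Genes that sit side by side on a chromosome need not work together. This stretch is densely packed with genes of unrelated function, many of them used by nearly every cell and others restricted to nerve, bone, muscle or blood cells. The long arm of chromosome 1 is among the regions most often gained in breast cancers. RNA arrays do not measure DNA copy number. Some pairs of genes in such stretches start back to back on opposite strands and share the DNA between their starts.

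The cells were MDA-MB-231, an established human breast cancer line of mesenchymal appearance. In 3 arrays the cells had received an expression plasmid for HS3ST2, an enzyme that adds sulfate to heparan sulfate chains, and in 3 arrays a control vector. The sources used here name neither the promoter of the plasmid nor the time after transfection nor any selection or cloning of cells, and do not say whether replicates were separate transfections. Affymetrix arrays measured biotin-labelled cRNA made from total RNA. The deposited values are log2 values centred so that the median of each probe set over the 6 arrays is 0. Levels of different genes therefore cannot be compared, and it cannot be said which genes were near background or whether defining markers of the line were present. All differences are HS3ST2-labelled minus control arrays in log2, with a moderated standard error (SE) and n = 3 per group. A gene was called lower or higher at a Benjamini-Hochberg adjusted p under 0.05 in a limma fit over all 19775 genes.

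The probe set of HS3ST2 was at 0.16, 0.04 and -0.04 in HS3ST2-labelled arrays, against -0.22, 0.17 and -0.11 in control arrays (difference 0.11 ± 0.10, SE), and was not called. Directions therefore rest on the labels, and the arrays are called HS3ST2-labelled throughout. Median absolute differences between arrays were 0.106 to 0.112 within the HS3ST2-labelled group, 0.1 to 0.122 within the control group, and 0.16 to 0.193 between groups. Over 6 probe sets for ribosomal RNA, the median was 0.02, 0.16 and 0.74 in HS3ST2-labelled arrays, against -0.20, -0.06 and -0.29 in control arrays. Of 4 lung and thyroid lineage markers, SFTA3 (6.74), NKX2-1 (3.73) and SFTPB (1.44) were called higher and SFTPC (0.04) was not called. The rise of SFTA3 was the largest of all genes. The sum of the 4 was 5.70 to 5.87 in HS3ST2-labelled arrays and -6.36 to -5.99 in control arrays. Of 5 genes checked for the line's identity, VIM (-0.20) and CD44 (-0.59) were called lower and KRT18 (0.26) higher. EPCAM (-0.08) and ESR1 (0.09) were not called. The sum of the 5 was -0.35 to -0.21 in HS3ST2-labelled arrays and 0.16 to 0.40 in control arrays. It adds epithelial and mesenchymal genes, so it does not measure identity. Of 3 leukocyte and 4 fibroblast markers limma called none (0 at an unadjusted p under 0.05). Of 3 endothelial markers KDR (-0.82) was called lower, and PECAM1 (-0.06) and CDH5 (-0.12) were not called. The sums were -0.04 to 0.09 and -0.09 to 0.01 for leukocytes, -0.01 to 0.14 and -0.30 to 0.13 for fibroblasts, and -0.92 to -0.22 and 0.33 to 0.62 for endothelium, in HS3ST2-labelled and control arrays in that order. The part of these signals in the results below was not tested, and fewer cells of a type and less RNA per cell cannot be told apart in such samples.

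Of the 48 measured members, 18 were called lower in the HS3ST2-labelled arrays, 3 were called higher and 27 were not called. Over all genes, 13.0% were called lower and 11.5% higher. The 18 and 3 members are 37.5% and 6.25% of the segment, and nothing is read from these shares, since the members were chosen on this comparison. The median difference over the members was -0.09, against 0.01 over all genes, and the members' differences ran from -0.86 to 0.41. The members' median depended on the probe sets used. It was -0.04, with 10 of 38 members called lower, when probe sets named _x_at or _s_at were left out. It was -0.18 with the probe set of largest SD per gene, and -0.18 over the 38 members left when the lowest 0.25 of genes by SD were dropped. A fall across the whole segment was thus not seen. It held for some genes, while 13 of the 48 members were above 0. The groups did not overlap, with HS3ST2-labelled arrays lower, for 22 members, where the share over all genes was 20.9%. With HS3ST2-labelled arrays higher, they did not overlap for 4 members, against 19.5% of all genes.

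By array, the median over the 48 members was -0.05, -0.06 and -0.07 in the HS3ST2-labelled arrays, against 0.06, 0.06 and 0.07 in the control arrays. Each HS3ST2-labelled median was thus below each control median. Within an array the members spread widely. In the HS3ST2-labelled arrays 30 to 36 of the 48 members lay below 0, against 12 to 16 in the control arrays. Nothing is read from these medians and counts, since the members were chosen on this comparison. When HS3ST2 replicate 3, in which ribosomal RNA signal was greatest, was left out, 12 members were called lower and 1 higher. Whichever single array was left out, 12 to 15 were called lower and 1 to 2 higher.

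**Figure D1:**
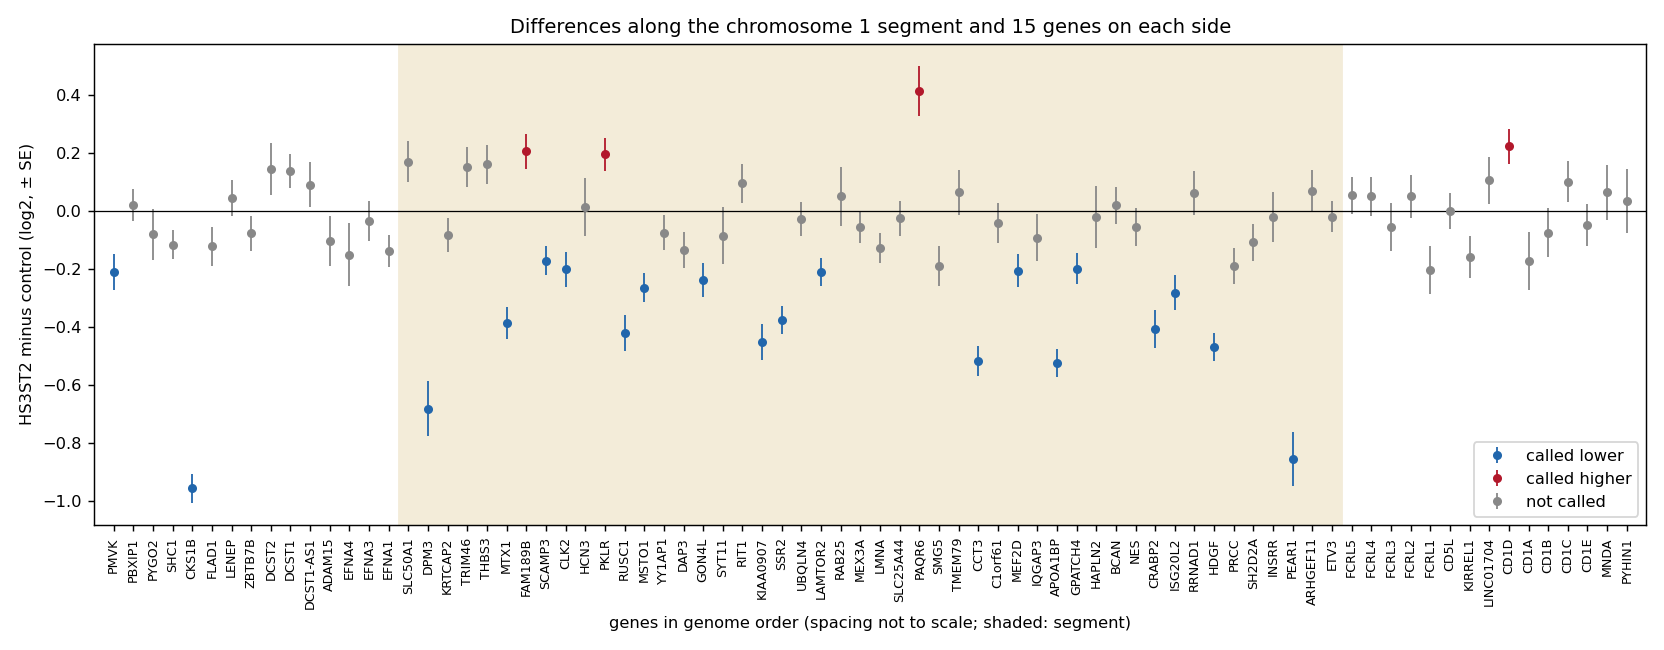
Differences (HS3ST2 minus control, log2) of the 48 measured members, shaded, and of 15 measured genes on each side, in genome order, with bars of 1 SE and colours for the call. Blue genes that were called lower lie among grey and red neighbours. The 12 other measured genes of the interval are not drawn.

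The largest fall was that of PEAR1, a receptor of platelets and endothelium that aids platelet activation. Its single probe set was at -0.54, -0.28 and -0.57 in HS3ST2-labelled arrays, against 0.50, 0.39 and 0.28 in control arrays (-0.86 ± 0.09, SE, a 1.81-fold lower value). All HS3ST2-labelled arrays lay below all control arrays. Since values are centred on the median of 6 arrays, the 2 middle values of a probe set mirror each other, as -0.28 and 0.28 do here. The measured member before PEAR1 in genome order, INSRR, a receptor tyrosine kinase of the insulin receptor family, was at -0.06, 0.02 and -0.02 in HS3ST2-labelled arrays, against 0.02, -0.18 and 0.17 in control arrays (-0.02 ± 0.09). The groups overlapped. On the other side, the next measured member, ARHGEF11, an exchange factor that activates RhoA, was at 0.17, 0.02 and -0.05, against 0.00, -0.10 and 0.04 in control arrays (0.07 ± 0.07), again with overlap.

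Sequence before the start of transcription is shown for the lowest members with a single annotated start, and for PAQR6, the highest member, so that the DNA of genes that went opposite ways can be set side by side. Each is the 250 bases before the start from RefSeq (GRCh38.p14), read 5′ to 3′ on the strand of the gene. The windows are chr1:156893468-156893717 (plus strand) for PEAR1, chr1:156338293-156338542 (minus) for CCT3, chr1:155934414-155934663 (minus) for KIAA0907, chr1:156705785-156706034 (minus) for CRABP2, chr1:156020952-156021201 (minus) for SSR2 and chr1:156248057-156248306 (minus) for PAQR6. Capitals mark a GC box (GGGCGG, or CCGCCC on the other strand), a CCAAT box (CCAAT or ATTGG) or a TATA box (TATAAA or TTTATA).
PEAR1: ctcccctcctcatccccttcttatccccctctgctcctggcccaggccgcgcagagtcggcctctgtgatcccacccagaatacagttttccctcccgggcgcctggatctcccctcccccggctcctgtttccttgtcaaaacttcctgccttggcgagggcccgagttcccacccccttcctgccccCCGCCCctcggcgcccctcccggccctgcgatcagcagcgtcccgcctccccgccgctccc
CCT3: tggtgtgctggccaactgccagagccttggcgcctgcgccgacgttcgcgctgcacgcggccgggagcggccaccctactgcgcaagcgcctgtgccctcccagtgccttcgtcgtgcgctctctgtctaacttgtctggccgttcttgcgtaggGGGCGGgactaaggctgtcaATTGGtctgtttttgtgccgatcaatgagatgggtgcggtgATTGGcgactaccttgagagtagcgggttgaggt
KIAA0907: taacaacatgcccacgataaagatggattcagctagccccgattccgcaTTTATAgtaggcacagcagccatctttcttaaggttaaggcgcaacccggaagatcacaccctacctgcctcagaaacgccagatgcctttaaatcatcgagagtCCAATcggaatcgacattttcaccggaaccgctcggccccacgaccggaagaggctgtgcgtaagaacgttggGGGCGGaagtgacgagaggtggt
CRABP2: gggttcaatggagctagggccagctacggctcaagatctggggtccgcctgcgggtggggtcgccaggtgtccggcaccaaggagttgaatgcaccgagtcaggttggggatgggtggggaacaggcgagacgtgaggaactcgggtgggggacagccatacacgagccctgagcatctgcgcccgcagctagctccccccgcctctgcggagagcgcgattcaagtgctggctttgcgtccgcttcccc
SSR2: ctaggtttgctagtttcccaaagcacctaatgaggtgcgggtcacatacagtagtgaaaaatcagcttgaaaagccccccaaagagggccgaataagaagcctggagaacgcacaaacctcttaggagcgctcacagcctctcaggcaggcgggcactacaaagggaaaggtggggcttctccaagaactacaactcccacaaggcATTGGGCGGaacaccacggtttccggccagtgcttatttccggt
PAQR6: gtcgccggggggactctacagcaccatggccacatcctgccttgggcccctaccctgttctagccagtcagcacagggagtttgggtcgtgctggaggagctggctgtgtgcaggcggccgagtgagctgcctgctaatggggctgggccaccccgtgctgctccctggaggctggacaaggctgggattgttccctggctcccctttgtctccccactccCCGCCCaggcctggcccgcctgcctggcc

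CCT3, KIAA0907 and SSR2 each hold a GC box and at least 1 CCAAT box, and in SSR2 they overlap. The windows of PEAR1 and PAQR6 each hold a GC box alone, and that of CRABP2 holds none of the 3 motifs. CpG dinucleotides were at 1.03 times the number that base composition gives in KIAA0907 and 0.91 in CCT3. The ratio was 0.69 in PEAR1, 0.68 in CRABP2, 0.51 in SSR2 and 0.28 in PAQR6. The lowest ratio of any member with a window was 0.14, in MEF2D, which was called lower. Over the segment, 43 measured members had a window in the table. A GC box occurred before at least 1 start in 33 of these 43 (76.7%) and in 62.3% of the 15384 measured genes in the table, a CCAAT box in 18 (41.9%) and 39.7%, and a TATA box in 2 (4.65%) and 10.9%. Over all 35116 windows of the table the shares were 42.6%, 32.0% and 10.7%. The 17 members called lower had a median GC content of 61.7% and a CpG ratio of 0.74, against 61.3% and 0.71 in the other 26, and a GC box in 12 of 17 and 21 of 26. The same motifs thus occurred among the members that fell and among the others. A match is a run of letters and no evidence of binding.

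Of 3 members that act in the endoplasmic reticulum, 2 were called lower and none higher. DPM3, which anchors the enzyme that makes the mannose donor for glycosylation, was at -0.21, -0.33 and -0.38 in HS3ST2-labelled arrays, against 0.57, 0.21 and 0.36 in control arrays (-0.68 ± 0.10, SE). The groups did not overlap, although the control arrays were widely spread. SSR2, a subunit of the complex beside the protein-conducting channel, was at -0.16, -0.21 and -0.21, against 0.21, 0.16 and 0.17 in control arrays (-0.38 ± 0.05). Here the arrays of a group lay close together. KRTCAP2, a subunit of the oligosaccharyltransferase that sits next to DPM3, was at -0.04, -0.08 and 0.01, against -0.02, 0.11 and 0.04 in control arrays (-0.08 ± 0.06), and was not called.

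Among 7 mitochondrial and metabolic members, 3 were called lower, 1 was called higher and 3 were not called. APOA1BP, now NAXE, repairs damaged forms of NADH and NADPH. It was at -0.24, -0.26 and -0.25 in HS3ST2-labelled arrays, against 0.30, 0.24 and 0.29 in control arrays (-0.52 ± 0.05, SE). The 3 values of each group were nearly equal and far apart between groups, but its only probe set is named _s_at. MTX1, a protein of the mitochondrial outer membrane that aids import, was at -0.22, -0.15 and -0.29, against 0.17, 0.15 and 0.18 in control arrays (-0.39 ± 0.05). MSTO1, which takes part in mitochondrial fusion and distribution, was at -0.17, -0.18 and -0.12, against 0.08, 0.13 and 0.12 in control arrays (-0.26 ± 0.05). Both genes have an annotated pseudogene copy on chromosome 1, and probes that also match the copy cannot be told apart here, so both values are uncertain. The probe sets of MSTO1 gave -0.44 and -0.09, and its call was lost when probe sets named _x_at or _s_at, which can match several transcripts, were left out.

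The metabolic gene called higher was PKLR, the pyruvate kinase of liver and red cells, at 0.16, 0.07 and 0.16 in HS3ST2-labelled arrays, against -0.13, -0.06 and -0.01 in control arrays (0.20 ± 0.06, SE). The groups did not overlap, but none of its 3 probe sets was called alone. SLC50A1, a sugar transporter and the first member in genome order, was at 0.10, 0.13 and -0.01, against -0.13, -0.17 and 0.01 in control arrays (0.17 ± 0.07). The groups overlapped and it was not called. SLC25A44, a mitochondrial carrier of branched-chain amino acids, differed by -0.03 ± 0.06. DAP3, a protein of the small mitochondrial ribosomal subunit, differed by -0.13 ± 0.06, and 1 of its 3 probe sets was called lower (-0.36). DAP3 too has an annotated pseudogene copy on chromosome 1.

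Of 7 members that act in RNA processing and ribosome assembly, 4 were called lower and none higher. KIAA0907, now KHDC4, is an RNA-binding protein linked to splicing. It was at -0.16, -0.21 and -0.21 in HS3ST2-labelled arrays, against 0.33, 0.30 and 0.15 in control arrays (-0.45 ± 0.06, SE). Both probe sets were below 0, at -0.75 and -0.15, and the first was called. ISG20L2, a nucleolar exonuclease that trims ribosomal RNA precursors, was at -0.15, -0.21 and -0.21, against 0.01, 0.11 and 0.16 in control arrays (-0.28 ± 0.06), and 2 of its 3 probe sets were called lower, both named _s_at, without which the call was lost. The third was at -0.04. GPATCH4, a nucleolar protein, differed by -0.20 ± 0.05, with 5 probe sets from -0.52 to 0.10. CLK2, a kinase of splicing factors, differed by -0.20 ± 0.06. Among those not called, SMG5, a factor of nonsense-mediated decay, differed by -0.19 ± 0.07, and PRCC, a nuclear protein fused to TFE3 in some kidney cancers, by -0.19 ± 0.06. In both the groups did not overlap. RRNAD1, now METTL25B, was at 0.00, 0.18 and -0.06 in HS3ST2-labelled arrays, against -0.11, 0.04 and 0.00 in control arrays (0.06 ± 0.08).

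Of 5 measured chromatin and transcription members, 3 were called lower and none higher. HDGF, a growth factor that also binds chromatin, was at -0.22, -0.24 and -0.22 in HS3ST2-labelled arrays, against 0.23, 0.22 and 0.29 in control arrays (-0.47 ± 0.05, SE). The groups were well apart, but its only probe set is named _x_at. GON4L, a nuclear co-repressor, was at -0.06, -0.14 and -0.12, against 0.20, 0.14 and 0.06 in control arrays (-0.24 ± 0.06), and 1 of its 4 probe sets was called. MEF2D, a transcription factor of muscle and nerve cells, differed by -0.21 ± 0.06. YY1AP1, a partner of the factor YY1, differed by -0.07 ± 0.06 and was not called. ETV3, a repressor of the ETS family and the last member, was at 0.04, -0.08 and -0.02 in HS3ST2-labelled arrays, against 0.01, 0.01 and -0.01 in control arrays (-0.02 ± 0.05). Its near-zero mean came from 3 probe sets at -0.34, 0.00 and 0.28, the last of which was called higher.

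Of 6 members of membrane traffic, the lysosome and protein folding, 3 were called lower, 1 higher and 2 were not called. CCT3, a subunit of the CCT chaperonin that folds actin and tubulin, was at -0.24, -0.23 and -0.29 in HS3ST2-labelled arrays, against 0.26, 0.30 and 0.23 in control arrays (-0.52 ± 0.05, SE). No array of either group came near the other group. LAMTOR2, a subunit of the Ragulator that holds mTORC1 at the lysosome, was at -0.09, -0.09 and -0.11, against 0.13, 0.13 and 0.09 in control arrays (-0.21 ± 0.05). SCAMP3, a protein of endosome membranes, differed by -0.17 ± 0.05. FAM189B, now ENTREP3, was called higher, at 0.12, 0.12 and 0.04 in HS3ST2-labelled arrays, against -0.13, -0.18 and -0.02 in control arrays (0.21 ± 0.06). RAB25, a small GTPase of epithelial recycling endosomes, was at -0.04, 0.12 and 0.00, against 0.17, 0.00 and -0.24 in control arrays (0.05 ± 0.10), with wide overlap. UBQLN4, a shuttle to the proteasome, differed by -0.03 ± 0.06.

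None of the 5 measured members of the cytoskeleton and nuclear lamina was called by limma (1 at an unadjusted p under 0.05). LMNA, which encodes lamins A and C, was at -0.03, -0.04 and -0.08 in HS3ST2-labelled arrays, against 0.13, 0.06 and 0.04 in control arrays (-0.13 ± 0.05, SE). The groups did not overlap. Its 6 probe sets ran from -0.28 to 0.10, and only the lowest was called. TRIM46, which bundles microtubules in axons, was at 0.04, 0.08 and -0.02, against -0.21, -0.16 and 0.01 in control arrays (0.15 ± 0.07). IQGAP3, a scaffold of dividing cells, differed by -0.09 ± 0.08, but its 4 probe sets ran from -0.69 to 0.23 and the lowest was called. NES, the intermediate filament nestin, differed by -0.05 ± 0.06.

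Signalling members went both ways. Of 6, PEAR1 and RUSC1 were called lower and PAQR6 higher. RUSC1, an adaptor of neurotrophin signalling, was at -0.20, -0.16 and -0.34 in HS3ST2-labelled arrays, against 0.22, 0.16 and 0.18 in control arrays (-0.42 ± 0.06, SE). PAQR6, a membrane progesterone receptor, was at 0.25, 0.21 and 0.07, against -0.27, -0.37 and -0.07 in control arrays (0.41 ± 0.09). It was the highest of all members, and its groups did not overlap. RIT1, a RAS-like GTPase, was at -0.08, 0.12 and 0.10, against -0.04, -0.02 and -0.08 in control arrays (0.10 ± 0.07). Its 5 probe sets disagreed, since 1 was called lower (-0.31) and 1 higher (0.38), so a gene mean says little here. SH2D2A, an adaptor of T cells, differed by -0.11 ± 0.06.

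Of 9 measured matrix, secreted and tissue-restricted members, CRABP2 was called lower and the other 8 were not called. CRABP2, which carries retinoic acid to its receptor, was at -0.14, -0.15 and -0.17 in HS3ST2-labelled arrays, against 0.35, 0.28 and 0.14 in control arrays (-0.41 ± 0.07, SE). THBS3, a matrix thrombospondin, was at 0.23, 0.02 and 0.06, against -0.04, -0.10 and -0.02 in control arrays (0.16 ± 0.07). The groups did not overlap, on the higher side. HCN3, a pacemaker channel, was at -0.06, -0.10 and 0.25, against 0.06, 0.09 and -0.09 in control arrays (0.01 ± 0.10). TMEM79, a membrane protein of skin, was at 0.12, -0.02 and -0.05, against -0.19, 0.02 and 0.04 in control arrays (0.06 ± 0.08). BCAN, a brain proteoglycan, was at 0.03, 0.05 and -0.03, against -0.09, -0.03 and 0.10 in control arrays (0.02 ± 0.06). In HCN3, TMEM79 and BCAN the groups overlapped. HAPLN2, a brain link protein, SYT11, a synaptotagmin, MEX3A, an RNA-binding protein, and C1orf61, now MIR9-1HG, the host transcript of a brain microRNA, ranged from -0.09 to -0.02.

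**Figure D2:**
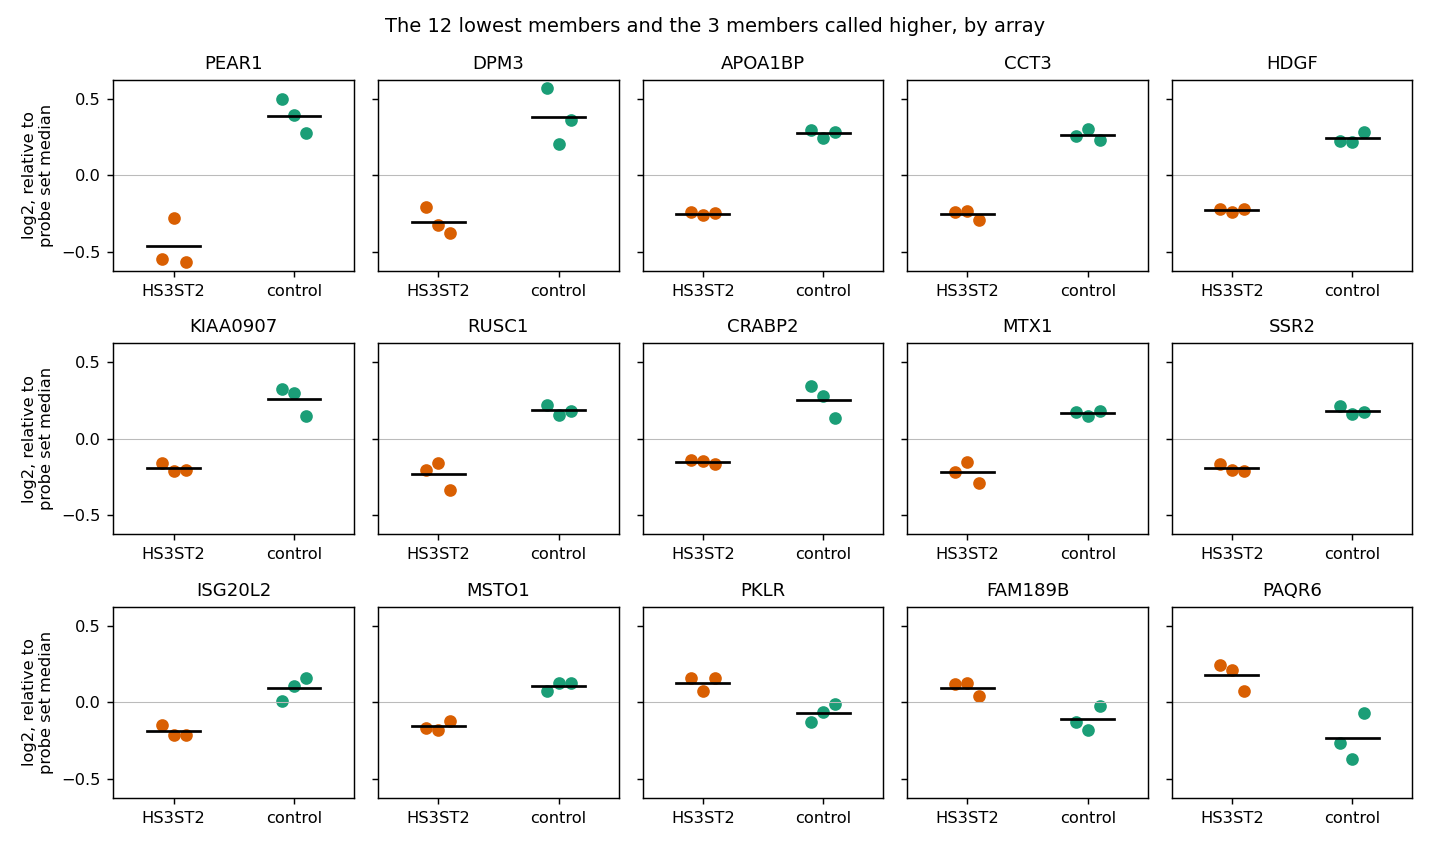
Values of each array (log2, relative to the median of the probe set, averaged per gene) for the 12 lowest members and the 3 members called higher, HS3ST2-labelled arrays left and control arrays right, with a bar at the mean of 3. The groups do not overlap in any of the 15 panels, but these genes were picked by the same values, so nothing is read from it. Over all genes the groups did not overlap for 20.9% on the lower side and 19.5% on the higher side.

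Calls close to the threshold depended on single arrays. Of the 21 called members, 13 kept the call when any 1 array was left out. CLK2 (-0.24 to -0.16), SCAMP3 (-0.19 to -0.16) and PKLR (0.16 to 0.22) lost it whichever array was left out. FAM189B lost it without any array other than control replicate 3 (0.17 to 0.23), and GPATCH4 without any other than HS3ST2 replicate 1 (-0.21 to -0.18). GON4L lost it without HS3ST2 replicate 2 or 3 or control replicate 1 or 2 (-0.24 to -0.20), MEF2D without HS3ST2 replicate 1 or 3 or control replicate 1 or 3 (-0.21 to -0.18), and LAMTOR2 without HS3ST2 replicate 3 or control replicate 2 (-0.20 in both). PRCC gained a call without control replicate 1 (-0.23).

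Members differed in how many probe sets stood behind them. Their 98 probe sets held 21 called lower and 4 called higher, where 8.98% and 7.9% of all 54613 probe sets were called. In the fit over genes, of 24 members with 1 probe set, 12 were called lower and 1 higher, and of 24 with several, 6 and 2. The single probe sets of CLK2, SCAMP3 and LAMTOR2, members called lower in that fit, were not called in the fit over probe sets. Their limma adjusted p there was 0.0999, 0.109 and 0.0505, in that order. The only probe set of HDGF is named _x_at, and those of RUSC1, APOA1BP, MTX1 and CLK2 are named _s_at. These members, all called lower, thus have no value when such probe sets are left out. Among the 24 members with several probe sets, 14 had probe sets on both sides of 0, and none had every probe set called lower.

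Falls were interleaved with other genes along the chromosome. The longest unbroken run of members below 0 had 7 genes, from CCT3 to HAPLN2, followed by 6 from RUSC1 to SYT11 and 5 from HDGF to PEAR1. Between them lay short runs above 0, of at most 2 members. The first 24 members held 10 called lower and 2 higher, and the last 24 held 8 and 1. Another 12 measured genes of the interval are not members, and 5 of them were called lower and none higher. Over all genes 13.0% were called lower and 11.5% higher. The median of the 12 was -0.23, against -0.09 over the members. Nothing is read from this, since the segment was chosen on this comparison. The 5 called lower were MRPL24, a protein of the large mitochondrial ribosomal subunit (-0.55 ± 0.06, SE), RUSC1-AS1 (-0.67 ± 0.13), GLMP, a lysosomal membrane protein (-0.39 ± 0.05), the kinetochore gene PMF1 (-0.36 ± 0.06) and FDPS, which makes farnesyl diphosphate (-0.26 ± 0.05).

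The nearest genes outside the segment were not called at either end. EFNA1, the gene just before the segment and a ligand of Eph receptors, was at -0.06, -0.06 and -0.02 in HS3ST2-labelled arrays, against 0.09, 0.02 and 0.16 in control arrays (-0.14 ± 0.06, SE). EFNA3, a second ephrin, was at -0.08, -0.03 and 0.08, against 0.10, -0.06 and 0.03 in control arrays (-0.03 ± 0.07). Just inside this end lay SLC50A1 (0.17) and DPM3 (-0.68). Of the 15 genes before the segment 2 were called lower, the cell cycle gene CKS1B (-0.96 ± 0.05) and the mevalonate pathway enzyme PMVK (-0.21 ± 0.06), and their median was -0.08. Beyond the other end, where ARHGEF11 (0.07) and ETV3 (-0.02) are the last members, FCRL5, a receptor of B cells, was at -0.01, 0.07 and -0.05, against -0.14, -0.04 and 0.03 in control arrays (0.06 ± 0.06). FCRL4, of the same family, was at 0.15, -0.02 and -0.04, against -0.08, -0.02 and 0.02 in control arrays (0.05 ± 0.07). Of 15 genes on that side none was called lower and CD1D, which presents lipids, was called higher (0.22 ± 0.06), with a median of 0.04. The calls of PMVK and CD1D were lost without any 1 array other than control replicate 2 (-0.24 to -0.18 and 0.19 to 0.25). In windows of 50 genes, 11 were called lower and 2 higher before the segment, and 5 and 3 after it. For these counts and those of the 15 genes on each side, the share over all genes was 13.0% lower and 11.5% higher. The counts were not tested against these shares. The median was -0.09 in the 50 genes before the segment and 0.01 in the 50 after it, against -0.09 over the members. Genes before the segment thus had a median as low as that of the members, and no boundary at EFNA1 is read from these values.

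Among the 1877 other measured genes of chromosome 1, 282 (15.02%) were called lower and 158 (8.42%) higher, against 13.0% and 11.5% of all genes. Their median was -0.02, against 0.01 over all genes. A running median over 25 genes reached its lowest value on the chromosome, -0.20, at ZNF687, which lies before the segment in genome order. Within the interval it ran from -0.19, at SSR2, to -0.02.

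**Figure D3:**
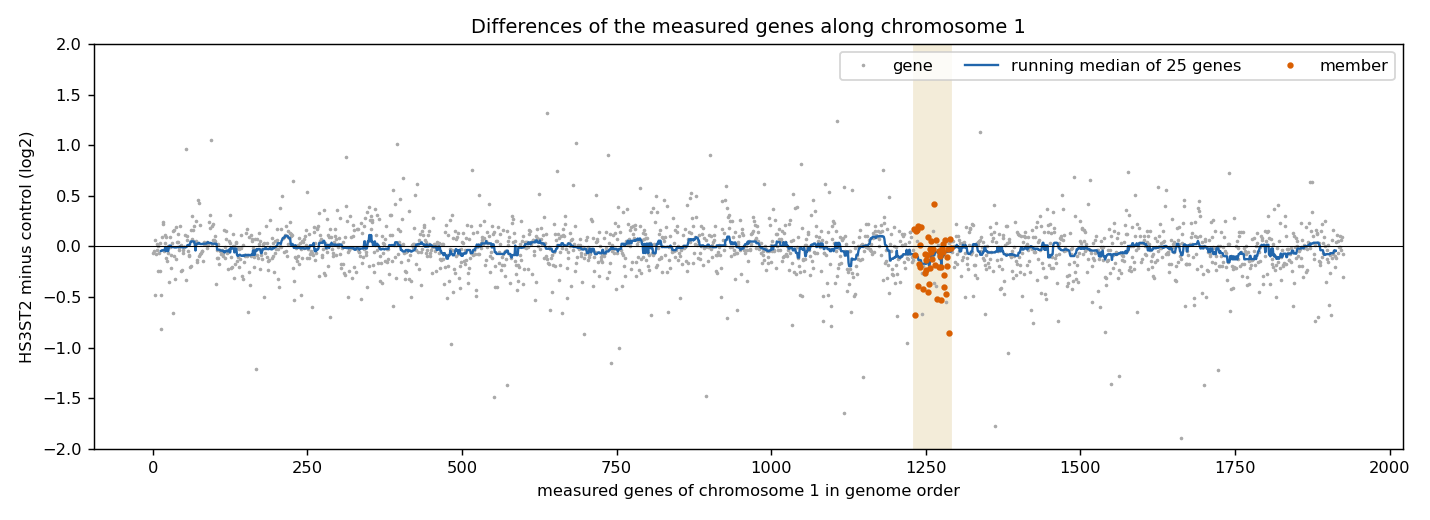
Differences (HS3ST2 minus control, log2) of 1925 measured genes of chromosome 1 in genome order, members in orange, the interval shaded, and a running median of 25 genes as a line. The line dips to -0.19 in the interval and to -0.20 at ZNF687, before the interval, and members scatter on both sides of 0.

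Some members start back to back with a neighbour. In the RefSeq windows, 9 pairs with a member had starts on opposite strands within 1000 bases, and 7 of these joined 2 members. In none of the 7 were both genes called lower, in 3 exactly 1 gene was, and in 4 the differences lay on opposite sides of 0. ISG20L2 and RRNAD1 start 30 bases apart, and they differed by -0.28 ± 0.06 and 0.06 ± 0.08 (SE). MTX1 (-0.39 ± 0.05) and THBS3 (0.16 ± 0.07), 798 bases apart, were farther from each other than any other such pair. GON4L and SYT11, 136 bases apart, gave -0.24 ± 0.06 and -0.09 ± 0.10. Outside the member pairs, CCT3 fell while TSACC, 234 bases away, was at 0.01 ± 0.05, and RUSC1 and its antisense neighbour RUSC1-AS1 were both called lower. Differences within pairs were not tested, since both genes belong to the comparison that chose the segment.

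**Figure D4:**
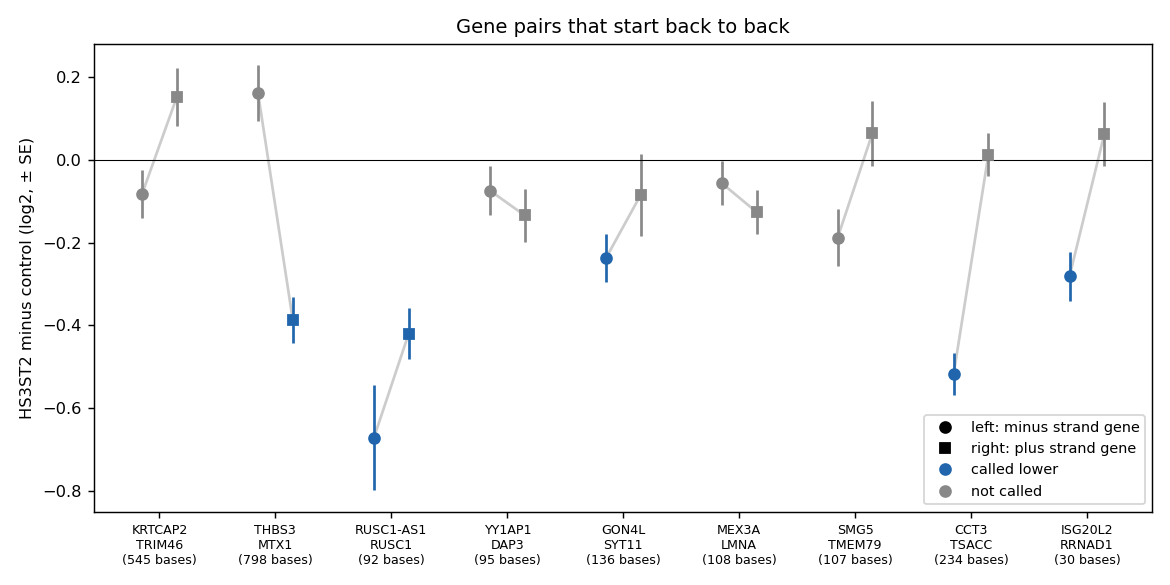
Differences (HS3ST2 minus control, log2, bars of 1 SE) for 9 pairs of genes that start on opposite strands, with the bases between their starts. Only RUSC1-AS1 and RUSC1 were both called lower. MTX1, GON4L, CCT3 and ISG20L2 fell while the genes opposite them were not called.

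Several members work in complexes or pathways with genes encoded outside the segment, and these partners were listed by function. The partners MRPS14, MRPS15, MRPS21, TOMM20 and LAMTOR5, all called lower, are also on chromosome 1, as is DDOST, which was not called. Of 62 measured partners, 23 were called lower, 6 higher and 33 were not called, with a median of -0.11. Over all genes 13.0% were called lower and 11.5% higher, with a median of 0.01. The lists were chosen with earlier results of these data known, so nothing is read from their shares. Of 6 measured subunits of the CCT chaperonin other than CCT3, 4 were called lower and none higher. CCT2 was at -0.24, -0.32 and -0.21 in HS3ST2-labelled arrays, against 0.20, 0.22 and 0.19 in control arrays (-0.46 ± 0.05, SE, limma adjusted p 5.92e-04). CCT8 (-0.42 ± 0.08, limma adjusted p 0.00548) and CCT6A (-0.39 ± 0.06, limma adjusted p 0.00191) also fell, while CCT5 (0.03 ± 0.07) was not called. CCT2 and CCT3 thus had differences of like size, from genes on chromosomes 12 and 1.

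Of 27 measured partners of DAP3 in the small mitochondrial ribosomal subunit, 14 were called lower and 2 higher, with a median of -0.20. MRPS28, which had the lowest adjusted p of these, was at -0.57, -0.47 and -0.47 in HS3ST2-labelled arrays, against 0.47, 0.60 and 0.54 in control arrays (-1.04 ± 0.06, SE, limma adjusted p 2.44e-05). MRPS21 (-0.79 ± 0.07, limma adjusted p 2.11e-04) and MRPS35 (-0.46 ± 0.05, limma adjusted p 4.0e-04) had the next lowest adjusted p. MRPS28, MRPS21 and MRPS35 lie on chromosomes 8, 1 and 12, in that order. Of 6 genes of outer membrane sorting and import listed with MTX1, 3 were called lower and none higher. The second metaxin, MTX2 (-0.12 ± 0.05), and the sorting gene SAMM50 (-0.07 ± 0.05) were not called, nor was TOMM22 (-0.13 ± 0.07). The 3 called lower were the import genes TOMM40, the import pore (-0.26 ± 0.06), TOMM20 (-0.19 ± 0.05) and TOMM70 (-0.17 ± 0.05). Each of the 3 lost its call in limma when certain single arrays were left out. TOMM40 lost it without HS3ST2 replicate 1 or control replicate 1 or 2 (-0.26 to -0.22), TOMM20 without any array other than control replicate 3 (-0.20 to -0.17), and TOMM70 without any other than control replicate 1 (-0.17 to -0.14).

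In complexes of the endoplasmic reticulum, partners were called in both directions. DPM1, the catalytic partner of DPM3, was at 0.13, 0.13 and 0.19 in HS3ST2-labelled arrays, against -0.16, -0.13 and -0.19 in control arrays (0.31 ± 0.05, SE, limma adjusted p 0.00303), so it rose while DPM3 fell. SSR4 rose by 0.47 ± 0.06 (limma adjusted p 0.00124), opposite to SSR2. SSR1 fell (-0.20 ± 0.05, limma adjusted p 0.0209), but that call was lost without HS3ST2 replicate 2 or 3 or control replicate 1 or 3 (-0.20 to -0.19), and SSR1 was at 0.00 when probe sets named _x_at or _s_at were left out. Of 10 oligosaccharyltransferase genes RPN1 rose (0.44 ± 0.08, limma adjusted p 0.00717) and 9 were not called. In the Ragulator, LAMTOR5 fell (-0.27 ± 0.05, limma adjusted p 0.0057) with LAMTOR2, while LAMTOR3 rose (0.37 ± 0.06, limma adjusted p 0.00259). Limma called none of 5 measured nonsense-mediated decay genes (0 at an unadjusted p under 0.05).

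**Figure D5:**
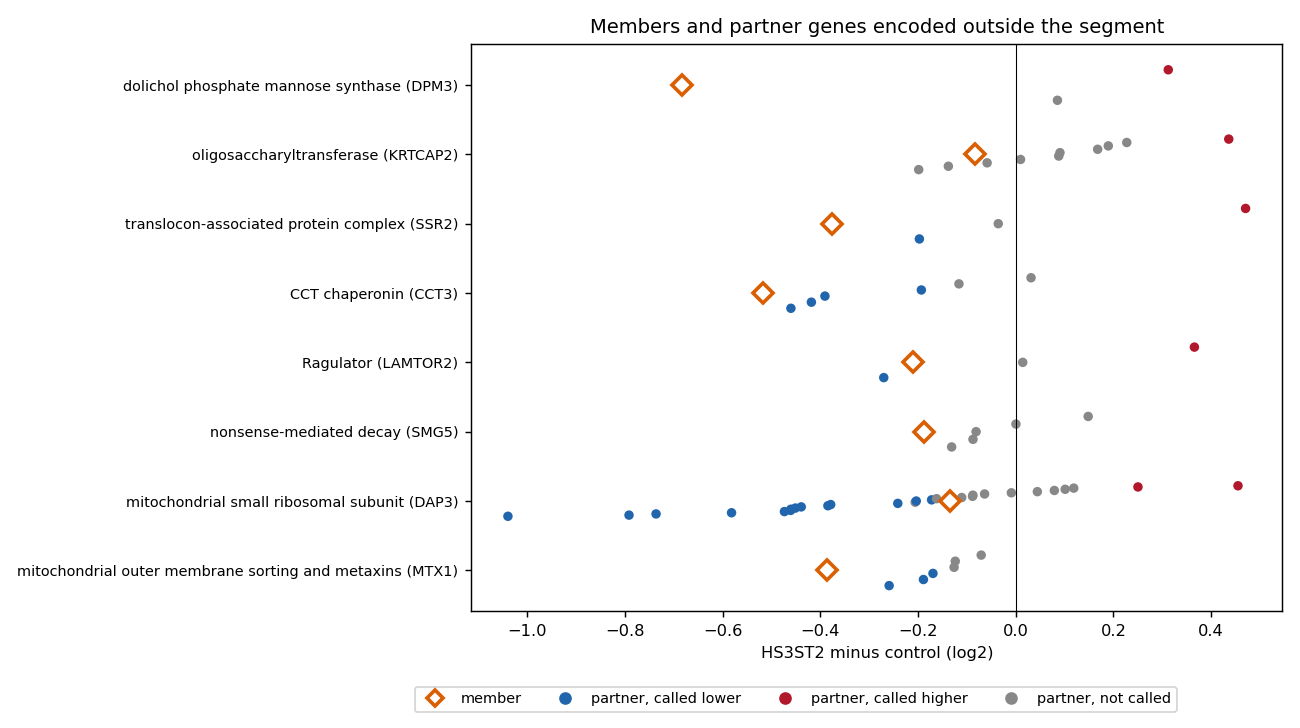
Differences (HS3ST2 minus control, log2) of 8 members, as open diamonds, and of 62 measured partner genes of the same complex or pathway, as dots coloured by the call. Partners of CCT3 lie mostly left of 0 like CCT3, whereas those of DPM3 lie right of 0 and DPM3 left.

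Relatives of members from the same gene families were also measured. The lamin genes LMNB1 (-0.64 ± 0.08, SE, limma adjusted p 0.00122) and LMNB2 (-0.38 ± 0.06, limma adjusted p 0.0033) fell, with VIM, the intermediate filament vimentin, also lower (-0.20 ± 0.06), and SYNM, synemin, rose by 0.61 ± 0.07 (limma adjusted p 7.06e-04). The call of VIM was lost without any 1 array other than control replicate 2 (-0.21 to -0.16). MEF2A (0.32 ± 0.06, limma adjusted p 0.00549) and MEF2C (0.37 ± 0.07, limma adjusted p 0.00852) rose, where MEF2D was called lower. With the probe set of largest SD, MEF2A was at 0.45 and no longer called. UBQLN2 rose by 0.26 ± 0.07 (limma adjusted p 0.0299), a call lost without any 1 array other than control replicate 3 (0.20 to 0.29). Limma called none of the other genes of the CLK, SCAMP and IQGAP families (1, 0 and 0 at an unadjusted p under 0.05).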

How the data were processed

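RNA of MDA-MB-231 cells was measured on 6 Affymetrix arrays, 3 per group. The submitters' processing notes name RMA, and the deposited values were taken as log2 expression, the base RMA writes. The values show that the median of every probe set over the arrays had been set to 0. Depth does not apply to arrays, and their number limits precision. After 62 control probe sets were set aside, 54613 were tested, of which 41091 had 1 gene symbol in GEO's platform annotation. Their values were averaged per gene (19775 genes).

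Groups were compared with limma 3.58.1 in R 4.3.3 (lmFit, eBayes, no covariate, Benjamini-Hochberg). The fit was tested on simulated data. p-values measure the spread between arrays, which may be technical. Gene order, names and promoter windows came from RefSeq (GRCh38.p14), and the files name no build. Named genes were the 12 lowest members, all above 0, those at both ends and the 2 with the lowest adjusted p per functional list, with up to 3 called genes per partner list. Members and lists were chosen with earlier results of these data known. Same-numbered arrays did not deviate together (r = 0.12, 0.05 and -0.08), so replicate numbers were not used as pairs. Alternatives changed the normalization, probe sets, weights, thresholds and arrays.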

Additional observations from a re-analysis of the deposited data

Results flagged for a closer look

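The ribosomal RNA control probe sets, which lie outside the fits across genes and probe sets, were higher in every HS3ST2-labelled array than in every control array. The lowest HS3ST2-labelled median was 0.02 log2 (0.0174), and the highest control median was -0.06. The group means were 0.31 ± 0.38 in HS3ST2-labelled and -0.18 ± 0.12 in control arrays (SD, n = 3). A two-sided exact permutation test gave p = 0.1, the smallest value possible with 3 arrays a group.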

How the results depend on the processing

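Quantile normalization, centring of each array on its median and robust eBayes left every member's call in place. With the replicate number as a block (replicate block), 15 members were called lower, 1 higher and 1 of 30 flanking genes was called, against 18, 3 and 3. Over left-out arrays, 12 to 15 members were lower, 1 to 2 higher, 1 to 3 flanking genes were called and the members' median ran from -0.10 to -0.09 (-0.1032 to -0.0922). When probe sets named _x_at or _s_at were left out, 10 of 38 members were lower and 1 higher, the median was -0.04 (-0.0387), 13 of 55 partner and relative genes were lower against 26 of 79, 5163 of 39114 probe sets differed against 9220 of 54613, and SSR1 turned to 0.0043. The median was -0.11 (-0.1057) with array weights, -0.18 (-0.1805) with the probe set of largest SD and -0.18 (-0.1795) over the 38 members left when the lowest 0.25 of genes by SD were dropped, of which 1 was higher. At an adjusted p under 0.01, 2840 genes differed against 4845, 11 members were lower and 1 higher, 1 flanking gene was called and 17 partners and relatives were lower. With a difference of at least 0.5 log2 as well as an adjusted p under 0.05, 1157 genes differed, 4 members were lower and 0 higher, 1 flanking gene was called, and 5 partners and relatives were lower and 1 higher. The alternatives for partners and for probe sets were added after seeing the data. The 12 other genes of the interval were not rerun under these settings. A filter on dim probe sets was not run, since the values hold no levels. With the probe set of largest SD, DAP3 (-0.36), LMNA (-0.28) and IQGAP3 (-0.69) were called lower and RIT1 higher (0.38). The cause of these changes was not tested.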
